A study of Mus musculus with 32 samples.

Results

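Oligodendrocyte lineage cells were sorted with the O4 antibody from cortices and spinal cords of mice carrying the TDP-43_Q331K transgene, and libraries of mice aged 6 months (n = 4) were set against libraries of mice aged 3 months (n = 4). These 8 libraries were chosen by the cell type and age in the labels, out of 32 in the study. TDP-43 is an RNA-binding protein, and its Q331K form is used to model amyotrophic lateral sclerosis. Both ages carry the transgene, so the comparison is one of age within transgenic mice, and no mice without the transgene were analysed here. For 1 tested difference between cell types, astrocytes sorted with the ACSA2 antibody from the same tissues and genotype were used, at 3 months (n = 4) and 6 months (n = 5). The promoter that drives the transgene, the strain, and whether a library holds 1 animal or a pool are not given in the sources used here. Nothing in the labels says that the libraries of 1 age came from separate animals, so p-values measure the spread between these libraries, which may be technical.

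Oligodendrocyte precursors divide in the adult central nervous system, leave the cell cycle, pass through a committed, newly formed stage and mature into cells that wrap axons with myelin. The O4 antibody recognises sulfatide and a related precursor-stage antigen, so that an O4 sort takes late precursors together with mature cells. Myelin is a membrane rich in cholesterol and galactolipids, and oligodendrocytes make most of that cholesterol themselves, under the control of the transcription factor SREBP2. The mRNA of myelin basic protein is carried along the processes on microtubules and translated near the sheath. The results below are given by role within the lineage, and transcripts of vascular and other cells found in the same sorts are given apart, after them.

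At 6 months 18 of 20 cholesterol synthesis genes, 9 of 22 precursor genes and 14 of 31 structural myelin genes were lower, while Mbp, Mobp, Bcas1 and Kif5a, all abundant in oligodendrocytes, were 2.41-fold to 3.5-fold higher. The libraries held 9752907 to 18598533 counts each, and 14050 of 55291 listed genes passed the count filter. With edgeR's quasi-likelihood test, at an adjusted p under 0.05 for each call in the text, 3425 genes were called (24.4% of those tested), 2096 of them higher at 6 months (14.9%) and 1329 lower (9.46%). Changes of at least 2-fold made up 1114 of the higher calls (7.93% of genes tested) and 199 of the lower ones (1.42%). The median log2 fold change over all tested genes was 0.02. The lower calls numbered 793 without 3 month replicate 1 and 810 without 3 month replicate 3, and the higher calls 1357 without 6 month replicate 2. Scaling the libraries by genes outside the lists of other cells and of cholesterol synthesis gave 1867 higher and 1781 lower. The 13 lists of lineage genes joined had 272 tested genes, of which 19 rose, 82 fell and the median log2 fold change was -0.21. The 13 lists of other cells joined had 159 tested genes, of which 80 rose, 6 fell and the median was 1.42.

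**Figure D1:**
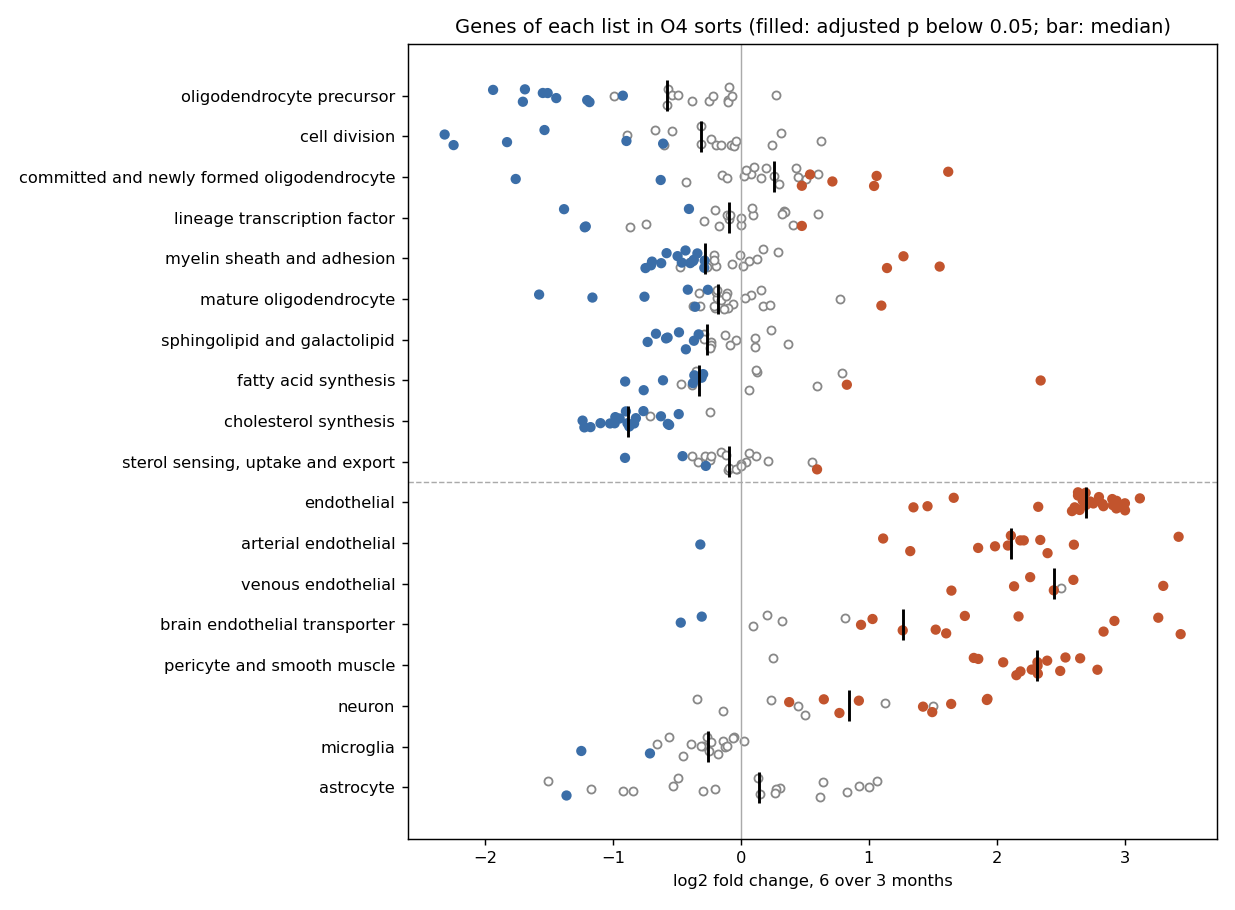
Log2 fold change of each tested gene, 6 over 3 months, in lists of lineage genes (above the dashed line) and of other cells (below it), in 4 libraries an age. Filled points passed the test, the bar is the list's median, and the cholesterol synthesis and endothelial lists lie on opposite sides of 0, with medians of -0.88 and 2.70.

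Library composition differed between the ages, and 1 library stood apart. The count columns are numbered in a separate run for each age. A difference in collection, sorting or library preparation between the ages cannot be told apart from age here. Mitochondrial transcripts made up 4.06% to 4.44% of each 3 month library and 6.41% to 10.1% of each 6 month library, and of the 13 mitochondrial protein genes tested 12 rose, with log2 fold changes of 0.98 to 1.70. The shares of the gene model CT010467.1 were 1.83% to 4.12% among the younger libraries against 0.728% to 1.36% among the older ones, and those of Lars2 were 0.0989% to 0.204% against 0.0331% to 0.0554%. Leaving out every gene over 0.5% of a library, together with the mitochondrial genes, gave 2000 genes higher and 1459 lower. In replicate 1 of 6 months 29 genes were at least 4-fold above all 7 other libraries, against 0 or 1 gene in each of the others. Without that library 2709 genes were higher (18.8% of 14380 tested) and 2216 lower (15.4%), and the counts of each list without it are given beside the list where they differ by over 1.5 times.

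Several of the 14 listed glucocorticoid response genes were far higher in replicate 1 of 6 months than in any other library. Plin4, a lipid droplet coat gene, was at 8.82, 19.4, 11.1 and 9.28 CPM at 3 months and 785, 24.6, 18.5 and 17.8 CPM at 6 months. Sgk1, a kinase gene, was at 77.6, 58.2, 77.4 and 117 CPM at 3 months and 1602, 100, 92.7 and 220 CPM at 6 months. Fkbp5, a chaperone of the glucocorticoid receptor, was at 4.86, 6.57, 8.49 and 7.5 CPM at 3 months and 105, 7.99, 6.55 and 5.24 CPM at 6 months, and Sult1a1 and Zbtb16 reached 51.3 and 122 CPM in that library. The other 3 libraries of 6 months were near those of 3 months for Plin4 and Fkbp5, and none of these 5 genes passed the test between ages. Without that library Sult1a1 rose (1.11). Of the 14 glucocorticoid response genes 1 rose and 0 fell, and without that library 3 rose and 2 fell, with medians of 1.15 and 0.20. The mature oligodendrocyte genes Ptgds (8044, 1559, 1987 and 1759 CPM at 6 months) and Apod (6567, 2243, 2044 and 2131 CPM), which encode a prostaglandin synthase and a lipid carrier, were also highest in that library, and without it Apod fell (-0.81).

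**Figure D2:**
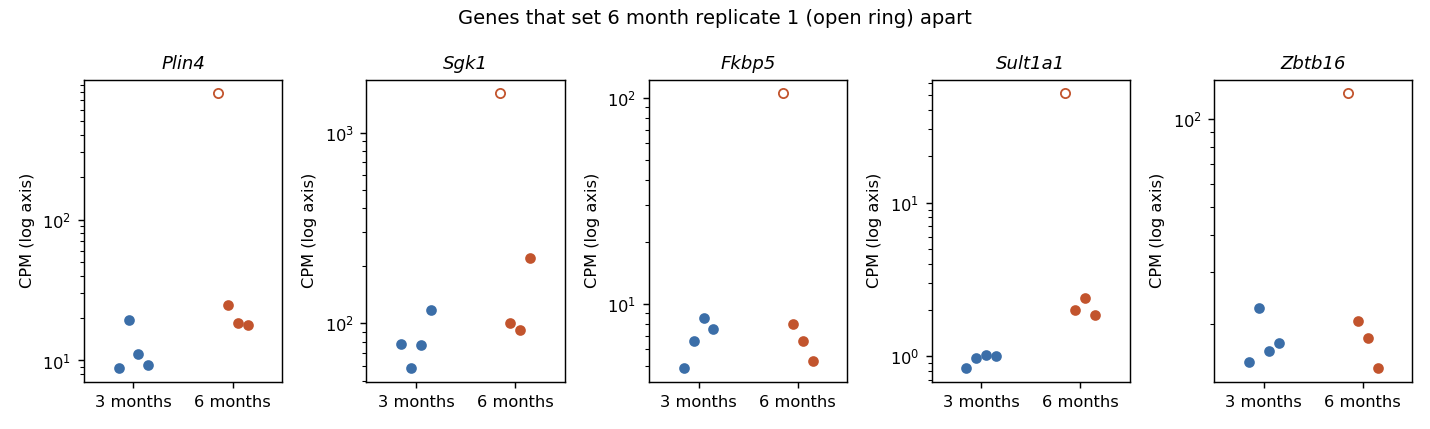
CPM (log axis) of 5 genes in each O4 library, with replicate 1 of 6 months as an open ring. In all panels that library lies above the 7 others, at 785 CPM against 24.6 CPM or less for Plin4.

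Markers of the labelled cell type were abundant. Mbp and Gpr17, a receptor of committed cells, were higher in O4 sorts than in ACSA2 sorts at 3 months by 3.26 and 5.44 on the log2 scale. The lineage transcription factor genes Olig2 and Sox10 were present in every library, at 345 to 374 CPM at 3 months and 270 to 349 CPM at 6 months, and at 901 to 1089 CPM at 3 months and 797 to 1198 CPM at 6 months. Neither passed the test (log2 fold changes of -0.20 ± 0.10 and -0.09 ± 0.13), but Sox10 did without 6 month replicate 1 (-0.24). Tardbp, the gene of TDP-43, was at 73, 83, 75.6 and 72.3 CPM at 3 months and 79.9, 94.2, 95.2 and 93.7 CPM at 6 months, and its reads cannot be split between the transgene and the mouse gene here. Its log2 fold change was 0.26 ± 0.08 (adjusted p = 0.046), a call that was lost without any 1 of 6 libraries (each except 3 month replicate 2 and 6 month replicate 1, log2 fold changes of 0.21 to 0.25) and under most other settings.

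Of the 22 precursor genes 9 fell at 6 months, 0 rose and 13 did not pass, with a median of -0.57. Of all genes tested 9.46% fell and 14.9% rose. The summed level of the list overlapped between the ages, at 1320 to 2084 CPM at 3 months and 1124 to 1557 CPM at 6 months. Pdgfra, the receptor for the growth factor that drives precursor division, was at 89.6, 52.1, 124 and 46.8 CPM at 3 months and 28, 22.5, 25.7 and 20.9 CPM at 6 months and fell by 1.69 on the log2 scale (SE 0.31, adjusted p = 0.00664). Cspg5, a neuron and glia proteoglycan gene, was at 68.1, 56.3, 90.7 and 41.6 CPM at 3 months and 10.8, 24.2, 20.3 and 23.6 CPM at 6 months and fell by 1.71 (SE 0.30). In both genes every 6 month library was below every 3 month library, and replicate 3 was the highest of the 3 month libraries. C1ql1 (-1.55 ± 0.31), a secreted synaptic organiser gene, Megf11 (-1.20 ± 0.25), an adhesion receptor gene, Emid1 (-1.94 ± 0.46) and Rlbp1 (-1.51 ± 0.35), a retinaldehyde-binding protein gene, were among the 9. Ptprz1 (-1.19 ± 0.30), a receptor phosphatase gene, did not pass with either 3 month replicate 1 (-1.12) or replicate 3 (-0.97) left out, or with 6 month replicate 3 left out (-1.19), nor with no filter on low counts (-1.24). Cspg4, which encodes the NG2 proteoglycan, was at 35.9, 28.9, 58.3 and 26.7 CPM at 3 months and 19.7, 22.5, 26.2 and 33.2 CPM at 6 months, and its groups overlapped (log2 fold change -0.57 ± 0.26, adjusted p = 0.152). The matrix genes Vcan (-0.38 ± 0.24) and Tnr (0.27 ± 0.27) also had overlapping groups. In these bulk sorts fewer cells of a stage and less RNA per cell cannot be told apart.

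Cell division genes were low at both ages, and 6 of the 21 tested fell. Mki67, a marker of cycling cells, was at 8.62, 4.36, 7.62 and 2.55 CPM at 3 months and 0.647, 1.39, 0.819 and 1.86 CPM at 6 months and fell by 2.32 on the log2 scale (SE 0.44). Of the 32 listed genes 11 were below the count filter, and of the tested ones 0 rose and 15 did not pass, with a median of -0.32. The filter asks for counts in as many libraries as 1 age holds, so Mki67 and Top2a could pass it by their 3 month libraries alone. With no filter 11 of the 32 were lower and 0 higher. The count of 6 was 3 without 3 month replicate 3 and 10 without 6 month replicate 1. The spindle gene Tpx2 (-0.90 ± 0.21) and the replication helicase gene Mcm2 (-0.61 ± 0.14) were among the 6. Top2a, a topoisomerase gene of dividing cells, was at 5.14, 2.41, 5.01 and 1.62 CPM at 3 months and 0.0809, 1.15, 0.298 and 1.53 CPM at 6 months, and its call (log2 fold change -2.25 ± 0.64) depended on 3 month replicates 1 and 3 (-2.03 without either) and on 6 month replicate 3 (-1.999 without it). Cdkn1c, a gene for an inhibitor of cyclin-dependent kinases, was at 49.1, 35.3, 55.5 and 41.4 CPM at 3 months and 21.2, 26.6, 25.8 and 17.7 CPM at 6 months and fell by 0.98.

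The transcription factor genes Etv5 and Nkx2-2 fell, whereas Olig1, Olig2, Sox10 and Myrf, which are shared by much of the lineage, did not pass. Etv5, a factor gene downstream of growth factor signalling, was at 16.7, 17.4, 25.6 and 12.2 CPM at 3 months and 5.99, 6.84, 9.31 and 9.17 CPM at 6 months. Its groups did not overlap, and the log2 fold change was -1.21 ± 0.23. Nkx2-2 fell by 0.41 (SE 0.08). Tcf7l2, a Wnt pathway factor gene of differentiating oligodendrocytes, was the 1 factor that rose (25.8 to 31.1 CPM at 3 months and 32.6 to 43.8 CPM at 6 months, log2 0.48 ± 0.11). Myrf, the gene of the factor that switches on myelin genes, was at 1812, 1962, 1824 and 1997 CPM at 3 months and 2390, 1781, 1744 and 1668 CPM at 6 months (-0.003 ± 0.12), and Olig1 was at 722 to 788 CPM at 3 months and 512 to 727 CPM at 6 months (-0.29 ± 0.12, and -0.41, which passed, without 6 month replicate 4). Of 22 tested factors 1 rose and 4 fell, against 14.9% and 9.46% of all genes tested. Without 6 month replicate 1, 2 rose and 7 fell.

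Among genes of committed and newly formed oligodendrocytes, Bcas1 rose and Enpp6 fell. Bcas1, a marker of cells that are starting to myelinate, was at 650, 768, 812 and 1365 CPM at 3 months and 1702, 3714, 2191 and 3450 CPM at 6 months. Every 6 month library was above every 3 month library, and the fold was 3.08 (log2 1.62 ± 0.31, adjusted p = 0.00687). Enpp6, a choline phosphodiesterase gene used to mark newly formed cells, was at 335, 254, 344 and 309 CPM at 3 months and 164, 216, 202 and 222 CPM at 6 months and fell by 0.63 (SE 0.12). Gpr17 was at 229, 243, 354 and 259 CPM at 3 months and 205, 406, 193 and 340 CPM at 6 months, with overlapping groups and a log2 fold change of 0.08 ± 0.26. Prom1, which encodes a membrane protein of protrusions, rose (16.7 to 25 CPM at 3 months and 24.6 to 50.7 CPM at 6 months). Of 23 tested genes 6 rose and 2 fell, against 14.9% and 9.46% of all genes tested, with a median of 0.26. The count of 6 was 3 when any of 3 month replicate 1, 6 month replicate 2 and 6 month replicate 4 was left out. Bcas1 and Enpp6, both of this list, thus differed in direction within the same libraries.

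Of 31 structural myelin genes 14 were lower and 3 higher, against 9.46% and 14.9% of all genes tested. The list had 14 genes not passing and a median of -0.28. Its summed level was 98430 to 129600 CPM at 3 months and 125800 to 187500 CPM at 6 months, with overlap between the ages. The log2 of 6 over 3 months of that sum was 0.52 in CPM and 0.0452 in deposited TPM. Mog, a glycoprotein gene of the outer myelin surface, was at 1367, 1411, 1267 and 1449 CPM at 3 months and 991, 872, 866 and 836 CPM at 6 months and fell by 0.62 on the log2 scale (SE 0.09, adjusted p = 0.000941). Gjb1, which encodes a gap junction connexin of oligodendrocytes, was at 429 to 457 CPM at 3 months and 241 to 308 CPM at 6 months. Its log2 fold change was -0.75 ± 0.09, and no library of one age overlapped the other. Cnp (-0.46 ± 0.09), a cytoskeleton-anchored phosphodiesterase gene, Mag (-0.40 ± 0.09), an adhesion gene of the inner sheath, Omg (-0.50 ± 0.09), Tmem125 (-0.58 ± 0.10), Cd82 (-0.43 ± 0.11) and Ermn (-0.37 ± 0.09), a cytoskeletal gene, also fell. Mal (-0.20 ± 0.10), a raft proteolipid gene, and Opalin (-0.21 ± 0.27), a membrane glycoprotein gene, did not pass, and Opalin was lowest in 6 month replicate 1 at 187 CPM. Without that replicate 20 of the 31 fell, Mal among them (-0.27), and 5 rose.

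The 3 myelin genes that rose were Mbp, Mobp and Plekhb1. Mbp, the gene of myelin basic protein, was at 19387, 19198, 26268 and 40335 CPM at 3 months and 49682, 103941, 62270 and 92981 CPM at 6 months. Replicate 4 was the highest of the 3 month libraries and lay below the lowest 6 month library, and the fold was 2.94 (log2 1.55 ± 0.30, adjusted p = 0.00652). With no filter on low counts the adjusted p was 0.0556. Mobp (GENCODE vM21, chromosome 9, 120149707 to 120181484), a gene for a basic protein of the major dense line, was at 5539, 6098, 6399 and 10784 CPM at 3 months and 15467, 20667, 13265 and 20143 CPM at 6 months, a fold of 2.41 (log2 1.27 ± 0.23). Plekhb1 was at 1587, 1674, 1812 and 2463 CPM at 3 months and 3029, 5107, 3491 and 5008 CPM at 6 months, a fold of 2.21. In deposited TPM, a scale per length, mean Mbp was 11970 ± 4425 at 3 months and 29980 ± 8070 at 6 months (SD, n = 4), and mean Mobp was 4052 ± 1314 and 8404 ± 1276. Mbp thus stood above Mobp per length at both ages.

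**Figure D3:**
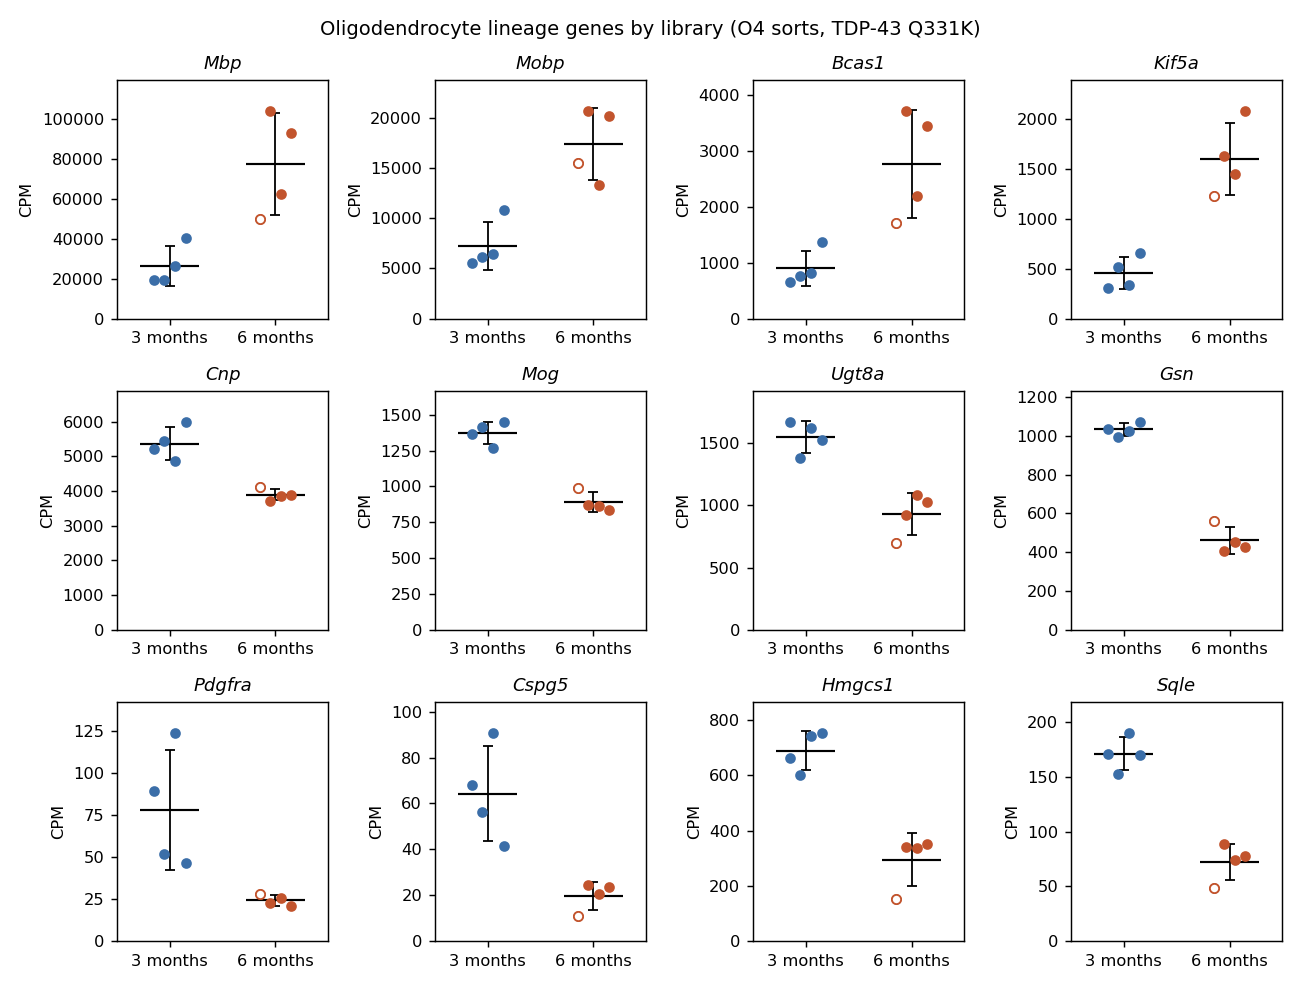
CPM of 12 lineage genes in each O4 library, with the mean and SD (n = 4 an age) and replicate 1 of 6 months as an open ring. The upper row (Mbp, Mobp, Bcas1, Kif5a) was higher at 6 months and the lower rows were lower, with no overlap between the ages in any panel.

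The genes most enriched in O4 sorts moved both ways. Among 147 tested genes, in no list of other cells and at least 4-fold above astrocyte sorts at each age, 31 rose and 26 fell (median 0.03). Of all genes tested 14.9% rose and 9.46% fell. That choice used the O4 libraries of both ages, and a gene that fell below 4-fold at 6 months was left out. These counts are therefore a description only. The genes named next are from the 12 largest rises among those called, of at least 5 CPM and with no overlap between the ages. Kif5a, a gene for the motor of kinesin-1 that carries cargo along microtubules, was at 312, 517, 342 and 657 CPM at 3 months and 1231, 1637, 1452 and 2085 CPM at 6 months, a fold of 3.5 (log2 1.81 ± 0.26). Trak2, a gene for the adaptor that links mitochondria to kinesin, was at 220, 210, 276 and 510 CPM at 3 months and 714, 1613, 1000 and 1475 CPM at 6 months, a fold of 3.95. Trp53inp2, an autophagy regulator gene, was at 452, 387, 572 and 982 CPM at 3 months and 1240, 2895, 1739 and 2700 CPM at 6 months, a fold of 3.58, and its adjusted p was 0.051 with no filter. In Trak2 and Trp53inp2, as in Mbp and Bcas1, 3 month replicate 4 was the highest of its age and 6 month replicates 2 and 4 were the highest of all. Kif5c (1.50 ± 0.22), a second kinesin heavy chain gene, Rph3a (2.005 ± 0.38) and Rapgef4 (1.87 ± 0.33), exocytosis and cyclic AMP signalling genes, Oxsr1 (1.81 ± 0.34), a kinase gene of ion transport, Pkp4 (1.81 ± 0.35), a junction plaque gene, and Dbndd2 (1.52 ± 0.21) also rose. The share of mitochondrial transcripts was likewise highest in 6 month replicates 2 and 4, at 10.1% and 9.03%, and its part in these results was not tested.

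The next enriched genes are from the 12 largest falls, chosen in the same way as the rises. Clgn, a chaperone gene, was at 134, 101, 147 and 124 CPM at 3 months and 54.7, 71.4, 54.1 and 62.6 CPM at 6 months, a fold of 0.481. Npb (-1.11 ± 0.20), a neuropeptide gene, Rasgef1c (-1.55 ± 0.34), an exchange factor gene, and Fam135b (-1.16 ± 0.27) were among the others. The next genes are among the largest falls over all called genes of at least 5 CPM with no overlap between the ages. Cacna1b, an N-type calcium channel gene, was at 6.81, 6, 8.13 and 6.96 CPM at 3 months and 1.46, 1.03, 0.819 and 1.09 CPM at 6 months (log2 -2.66 ± 0.22, adjusted p = 0.000137). Adra1b (-1.85 ± 0.18), an adrenergic receptor gene, Bace2 (-1.79 ± 0.18), an aspartyl protease gene, Gpr176 (-1.77 ± 0.19), an orphan receptor gene, and Cd44 (-1.82 ± 0.31), a hyaluronan receptor gene, fell as well. The lack of overlap between the ages in these genes was a condition of their choice and not a result.

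Among genes of mature oligodendrocyte enzymes, carriers and cytoskeleton more fell than rose. Klk6, a secreted serine protease gene, was at 607, 340, 571 and 429 CPM at 3 months and 142, 217, 135 and 158 CPM at 6 months and fell by 1.58 on the log2 scale (SE 0.21, adjusted p = 0.0011). Gsn, which encodes the actin-severing protein gelsolin, was at 1037, 995, 1027 and 1071 CPM at 3 months and 562, 407, 452 and 425 CPM at 6 months and fell by 1.16 (SE 0.11). The 2 ages were well separated for both genes. The iron genes went in opposite directions: Trf, transferrin, fell (5588 to 7230 CPM at 3 months and 3695 to 4028 CPM at 6 months), and Fth1, ferritin heavy chain, rose (9334 to 19041 CPM at 3 months and 23890 to 34479 CPM at 6 months, log2 1.10 ± 0.21, with an adjusted p of 0.0525 with no filter). Stmn4 (-0.42 ± 0.10), a microtubule regulator gene, and Slc48a1 (-0.36 ± 0.08), a heme transporter gene, fell. Car2 (-0.33 ± 0.17), carbonic anhydrase, Glul (-0.11 ± 0.14), glutamine synthetase, and Il33 (0.17 ± 0.17), a nuclear cytokine, did not pass. Of 28 genes 1 rose and 6 fell (median -0.18), against 14.9% and 9.46% of all genes tested. Without 6 month replicate 1, 5 rose and 12 fell, with Il33 higher (0.32) and Glul lower (-0.26).

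The enzymes that make the antigen used for the sort were lower. Ugt8a, which adds galactose to ceramide, was at 1669, 1378, 1620 and 1521 CPM at 3 months and 700, 922, 1079 and 1029 CPM at 6 months and fell by 0.73 on the log2 scale (SE 0.13, adjusted p = 0.00364). Gal3st1, which sulfates that lipid to sulfatide, was at 178, 167, 182 and 179 CPM at 3 months and 114, 111, 106 and 115 CPM at 6 months and fell by 0.67 (SE 0.07). Fa2h, the fatty acid hydroxylase of myelin lipids, was at 1196, 1076, 1168 and 1179 CPM at 3 months and 796, 714, 781 and 786 CPM at 6 months and fell by 0.59 (SE 0.08). All 3 genes were lower in each 6 month library than in each 3 month library. The very long chain elongases Elovl1 (-0.57 ± 0.14) and Elovl7 (-0.48 ± 0.09) and the first enzymes of sphingolipid synthesis, Sptlc1 (-0.33 ± 0.08) and Sptlc2 (-0.43 ± 0.07), fell too. The ceramide enzymes Cers2 (-0.23 ± 0.12) and Degs1 (-0.23 ± 0.09) did not pass. Of 20 genes 8 fell and 0 rose (median -0.27), and 12 fell without 6 month replicate 1, Cers2 (-0.38) and Degs1 (-0.25) among them. Degs1 also fell without 6 month replicate 3 (-0.31).

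Fatty acid synthesis had 8 of 18 genes lower and 2 higher (median -0.33). Acss2 and Acly, which make the acetyl-CoA used for lipid synthesis, were at 98 to 113 CPM at 3 months and 50.2 to 65 CPM at 6 months, and at 228 to 252 CPM at 3 months and 148 to 162 CPM at 6 months, and fell by 0.91 and 0.61. Elovl5 (-0.76 ± 0.12), Tecr (-0.31 ± 0.07), enzymes of chain elongation, and Mid1ip1 (-0.35 ± 0.09), an activator of acetyl-CoA carboxylase, fell. The 2 main desaturase genes differed. Scd1 was at 670, 641, 716 and 1003 CPM at 3 months and 923, 1512, 1277 and 1669 CPM at 6 months (0.83 ± 0.20) and Scd2, the abundant brain form, was at 9897, 9196, 9695 and 10573 CPM at 3 months and 8172, 6744, 8165 and 7471 CPM at 6 months (-0.36 ± 0.10). The Scd1 call was lost without 6 month replicate 2 (0.75) and with no filter (0.78), and the Scd2 call without 3 month replicate 1 (-0.37), 3 (-0.38) or 4 (-0.33) or 6 month replicate 2 (-0.33). Acacb, the carboxylase form that makes the inhibitor of fatty acid oxidation, rose (1.33 to 2.46 CPM at 3 months and 5.18 to 10.6 CPM at 6 months, log2 2.34 ± 0.28). Acaca, the form that feeds synthesis, was at 197, 177, 212 and 209 CPM at 3 months and 391, 152, 135 and 154 CPM at 6 months. Its log2 fold change was 0.07 ± 0.33, and -0.44 without 6 month replicate 1. Fasn (-0.35 ± 0.13) did not pass, but did without 6 month replicate 1 (-0.47), with DESeq2 (-0.36), with no filter (-0.41) and under other scalings and filters. Without 3 month replicate 1, 5 genes of the list fell, and without 6 month replicate 1, 12 did.

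Cholesterol synthesis was the lineage list in which the largest share of genes fell, 18 of 20, with 0 higher and a median of -0.88. For every listed gene but Tm7sf2 no 6 month library reached the lowest 3 month library, a separation seen in that direction in 11.8% of all tested genes and in the other in 14.7%. These enzymes are known targets of SREBP2, and the starts of 4 of the genes are shown for the motifs they hold. The sequences are those of RefSeq for GRCm38.p6, 5′ to 3′ on the gene's strand, before the annotated start. Capitals mark TCACNCCAC, a sterol response element core bound by SREBP2, and CCAAT, bound by its partner NF-Y, each on either strand (ATTGG is CCAAT read on the other strand).
Hmgcs1, chr13:119690151-119690320, plus strand: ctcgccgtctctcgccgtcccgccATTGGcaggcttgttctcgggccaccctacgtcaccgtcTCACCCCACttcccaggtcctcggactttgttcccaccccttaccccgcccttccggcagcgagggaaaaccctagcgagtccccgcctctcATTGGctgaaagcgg
Msmo1, chr8:64733619-64733748, minus strand: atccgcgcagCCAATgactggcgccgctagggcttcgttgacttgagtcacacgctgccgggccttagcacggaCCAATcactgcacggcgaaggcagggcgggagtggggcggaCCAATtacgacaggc
Cyp51, chr5:4104712-4104736, minus strand: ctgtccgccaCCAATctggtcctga
Mvd, chr8:122443435-122443492, minus strand: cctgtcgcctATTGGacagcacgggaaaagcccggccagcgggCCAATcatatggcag

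Windows from 250 bases before to 50 after the start were listed for 15 of the 20 genes. CCAAT was found in 14 of the 15 (93.3%), against 41.1% of the 27025 genes with a listed window. TCACNCCAC was found in 1 of the 15 (6.67%), Hmgcs1, against 1.44% of all. The 2 motifs share no bases in the windows printed. A match is a description of the letters in the window and not of binding, which was not measured.

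Along the pathway, the falls covered the early, middle and late steps. Hmgcs1, the synthase that makes HMG-CoA, was at 662, 602, 741 and 753 CPM at 3 months and 151, 340, 337 and 352 CPM at 6 months, with replicate 1 the lowest at 6 months. It fell by 1.23 on the log2 scale (SE 0.24, adjusted p = 0.00742). Sqle, the squalene epoxidase, was at 171, 153, 190 and 170 CPM at 3 months and 48.7, 88.3, 74.3 and 77.8 CPM at 6 months and fell by 1.24 (SE 0.16). The 2 ages did not overlap in either gene. Among the mevalonate enzymes, Mvk (-0.87 ± 0.09), Mvd (-0.99 ± 0.22) and Fdps (-0.95 ± 0.13) fell, as did Acat2 (-0.63 ± 0.09) before them. Pmvk (-0.49 ± 0.14) lost its call without 3 month replicate 2 (-0.43), 3 (-0.51) or 4 (-0.45), and Idi1 (-0.90 ± 0.24) without 3 month replicate 1 (-0.88) or 3 (-0.84) or 6 month replicate 3 (-0.90). Squalene synthase, Fdft1, fell (164 to 193 CPM at 3 months and 80.8 to 107 CPM at 6 months).

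Of the steps from lanosterol to cholesterol, Cyp51, the demethylase, was at 202, 190, 218 and 212 CPM at 3 months and 55.4, 117, 102 and 109 CPM at 6 months and fell by 1.10 (SE 0.20). Msmo1, the methyl sterol oxidase, fell (177 to 237 CPM at 3 months and 55.3 to 116 CPM at 6 months). Dhcr7, a reductase of the last steps, was at 113 to 138 CPM at 3 months and 62 to 77.6 CPM at 6 months, with a log2 fold change of -0.84 ± 0.09. Lss (-0.56 ± 0.14), Nsdhl (-0.76 ± 0.13), Ebp (-0.57 ± 0.09) and Sc5d (-0.82 ± 0.09) fell as well. Hsd17b7 (-0.71 ± 0.24, adjusted p = 0.0621) and Tm7sf2 (-0.24 ± 0.13, adjusted p = 0.2) did not pass. Hsd17b7 did without 6 month replicate 1 (-0.50), with DESeq2 (-0.72), with limma-voom (-0.78) and under another scaling and filter. Leaving out each library in turn left 16 to 19 of the 20 lower.

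**Figure D4:**
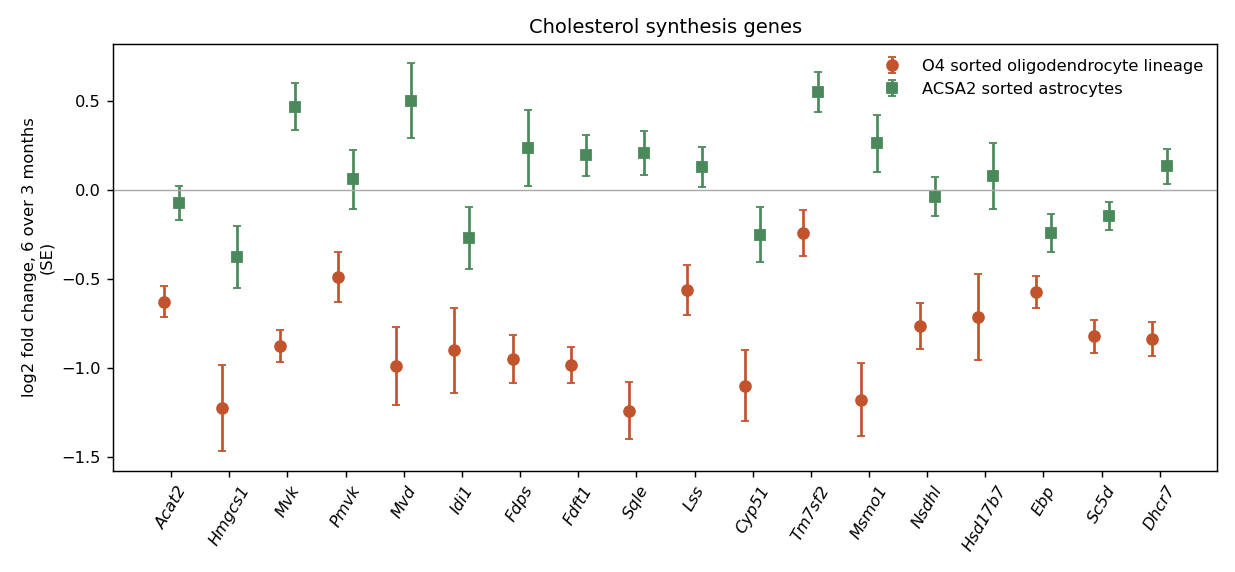
Log2 fold change, 6 over 3 months, with its SE for 18 of the 20 cholesterol synthesis genes in pathway order, in O4 sorts (circles) and ACSA2 astrocyte sorts (squares). The O4 values lie between -1.24 and -0.24, and the astrocyte values lie above them for every gene shown.

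The genes that sense, take up and export sterols moved less as a group, with 1 of 22 tested higher, 3 lower and a median of -0.10. Of all genes tested 14.9% were higher and 9.46% lower. Srebf2, the gene of SREBP2, was at 346, 357, 349 and 406 CPM at 3 months and 245, 280, 273 and 265 CPM at 6 months and fell by 0.46 on the log2 scale (SE 0.08). Its groups did not overlap. Scarb1, a receptor gene for high density lipoprotein, rose (21.9 to 24.1 CPM at 3 months and 30.5 to 40.8 CPM at 6 months, log2 0.59 ± 0.10). Insig1 (-0.24 ± 0.09), whose product retains the SREBP complex, Scap (-0.28 ± 0.13), its escort, Abca1 (0.56 ± 0.27), a cholesterol exporter, and Apoe (0.21 ± 0.14) did not pass. Without 6 month replicate 1, in which Scap stood at 119 CPM and Abca1 at 103 CPM, 10 of the 22 were lower, Scap (-0.45) and Insig1 (-0.29) among them, and 1 higher.

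Of 11 tested growth factor receptors 1 rose and 2 fell (median 0.08), against 14.9% and 9.46% of all genes tested, and without 6 month replicate 1 the counts were 2 and 2 (median -0.09). Fgfr1, a fibroblast growth factor receptor gene of precursors, fell (30.6 to 35.2 CPM at 3 months and 15.5 to 22.4 CPM at 6 months, log2 -0.72 ± 0.12), and Fgfr2 (-0.33 ± 0.13) and the neuregulin receptor gene Erbb3 (0.16 ± 0.18) did not pass, although Fgfr2 did without 6 month replicate 3 (-0.455). Of 21 channels and transmitter receptors 4 fell and 0 rose (median -0.25), and 7 fell without 6 month replicate 1. The potassium channel gene Kcnk13 was at 143, 139, 137 and 139 CPM at 3 months and 83.7, 77, 92.7 and 91.7 CPM at 6 months and fell by 0.69 (SE 0.08). Kcnj10 (-0.25 ± 0.15), the Kir4.1 channel gene, did not pass and was highest in 6 month replicate 1, without which it fell by 0.45 (adjusted p = 0.000322).

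Of 20 genes that mark oligodendrocytes in disease models 14 did not pass. Serpina3n, a protease inhibitor gene often used to define that state, was at 282, 24.9, 189 and 126 CPM at 3 months and 162, 217, 56.7 and 92.7 CPM at 6 months, and C4b, a complement gene, was at 443, 102, 360 and 379 CPM at 3 months and 288, 649, 259 and 403 CPM at 6 months. Both varied widely among libraries of 1 age and neither passed (-0.23 ± 0.71 and 0.32 ± 0.47). H2-K1, a class I histocompatibility gene, rose (17.7 to 20.8 CPM at 3 months and 27.9 to 39.8 CPM at 6 months, log2 0.89 ± 0.11). Anxa2 (0.72 ± 0.12), an annexin gene, and the receptor genes Tnfrsf1a (0.94 ± 0.17) and Tnfrsf12a (1.03 ± 0.23) rose from low levels. H2-K1 and C4b have near-identical copies in the genome, and how the counting split such reads is not given in the labels. In all, 5 of 20 rose and 1, Klk6, fell (median 0.75), against 14.9% and 9.46% of all genes tested. Without 6 month replicate 1, 9 rose and 2 fell. Anxa2, Tnfrsf1a, Tnfrsf12a and H2-K1 are also made by endothelial cells, whose markers moved in the same direction, as given next, and the part of those cells in these values was not tested.

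Vascular transcripts rose in the O4 sorts, from low levels. Pecam1 (GENCODE vM21, chromosome 11, 106654217 to 106750628), an endothelial adhesion gene, was at 5.28, 7.8, 5.42 and 7.34 CPM at 3 months and 28.4, 39.8, 58.2 and 45.4 CPM at 6 months, a fold of 6.64 (log2 2.73 ± 0.23, adjusted p = 0.000186). All 27 endothelial genes were higher. Their summed level was 137, 161, 134 and 176 CPM at 3 months and 514, 883, 1333 and 1003 CPM at 6 months, lowest in replicate 1 at the later age. Flt1, a receptor for vascular endothelial growth factor, was at 21.7, 28.4, 23.7 and 21.5 CPM at 3 months and 87.7, 178, 259 and 210 CPM at 6 months, and Vwf, a clotting factor gene, at 5.84, 7.28, 8.44 and 13.6 CPM at 3 months and 60.1, 58.2, 82.1 and 66.5 CPM at 6 months. Cldn5 (2.64 ± 0.34), the tight junction claudin, Cd34 (1.46 ± 0.21) and Kdr (1.35 ± 0.30), with an adjusted p of 0.095 with no filter, were among the others. No marker in the lists of other cells had 0 counts over all 8 libraries.

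Most genes of vessel segments and wall cells were higher too. Of 13 arterial genes 12 rose, among them Sema3g (2.60 ± 0.23) and Bmx (2.40 ± 0.29), a signalling and a kinase gene, and Unc5b, a netrin receptor gene, fell (-0.32 ± 0.10). Unc5b was at 569, 666, 551 and 693 CPM at 3 months and 495, 463, 531 and 501 CPM at 6 months and made up most of the list's summed level, which overlapped between the ages, at 581 to 733 CPM at 3 months and 552 to 665 CPM at 6 months. The Unc5b call was lost without 3 month replicate 2 (-0.29) or 4 (-0.26) or 6 month replicate 2 (-0.31) or 4 (-0.35). Of 7 tested venous genes 6 rose and 0 fell, such as Nr2f2 (2.26 ± 0.29), the venous factor gene, and Icam1 (1.65 ± 0.32), and Ackr1 was at 9.79, 1.09, 1.34 and 1.53 CPM at 6 months and did not pass, but did without 6 month replicate 1 (1.11), 2 (2.78) or 3 (2.74). Brain endothelial transporters had 11 of 17 higher and 2 lower: Abcb1a (2.84 ± 0.42), the drug efflux pump gene, Slc38a5 (3.44 ± 0.39) and Slc22a8 (2.92 ± 0.57) rose, whereas Slc2a1 (0.20 ± 0.10), which encodes the glucose transporter and is also made in glia, and Mfsd2a (0.81 ± 0.35) did not pass. Pericyte and smooth muscle genes had 14 of 15 tested higher and 0 lower (median 2.32), and their summed level was 53.6 to 115 CPM at 3 months and 294 to 599 CPM at 6 months. Pdgfrb, the pericyte receptor gene, was at 3.4, 5.44, 4.96 and 6.26 CPM at 3 months and 17.4, 18.5, 29.9 and 25.8 CPM at 6 months. The pericyte gene Rgs5 (2.32 ± 0.33) and the smooth muscle genes Myh11 (2.65 ± 0.36), Acta2 (2.32 ± 0.42) and Notch3 (2.54 ± 0.26) rose. Fibroblast genes had 0 calls among 5 tested, with Col1a2 at -0.42 ± 0.24 (-0.63, which passed, without 3 month replicate 2) and Col1a1 at 0.556, 0.513, 0.614 and 5.72 CPM at 3 months and 0.566, 2.06, 1.79 and 2.18 CPM at 6 months. The Col1a1 log2 fold change was -0.10, and 1.53 without 3 month replicate 4. Without 6 month replicate 1, 2 of 7 tested fibroblast genes rose.

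**Figure D5:**
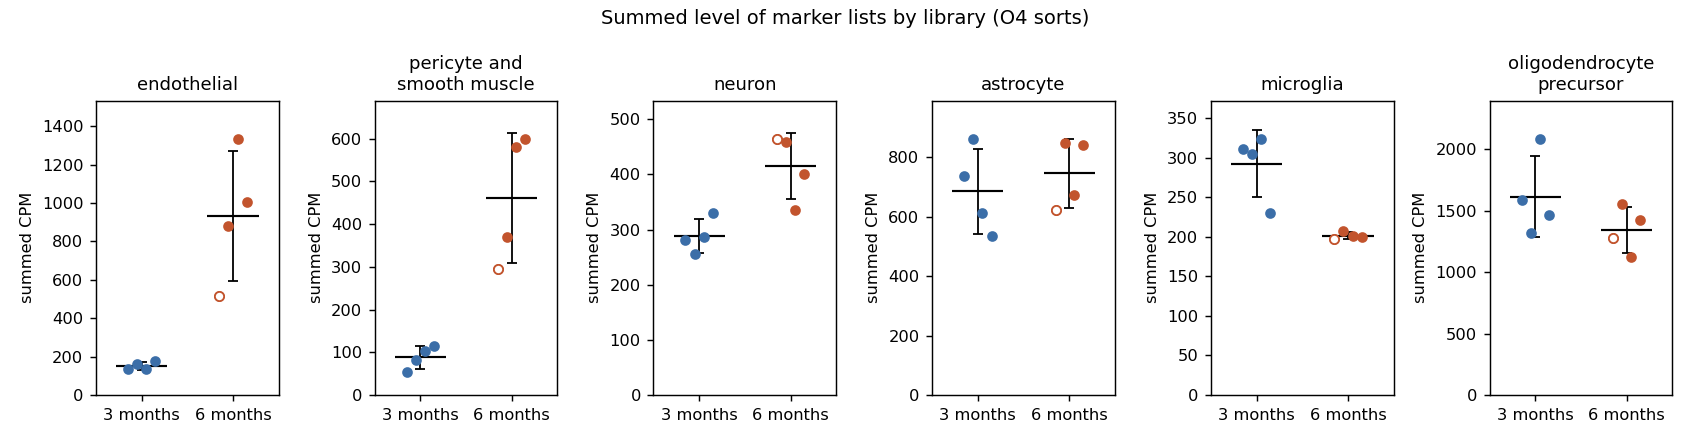
Summed CPM of 6 marker lists in each O4 library, with the mean and SD (n = 4 an age) and replicate 1 of 6 months as an open ring. Endothelial sums went from 134 to 176 CPM at 3 months to 514 to 1333 CPM at 6 months, whereas astrocyte sums overlapped.

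Other cells gave smaller or mixed values. Of 16 tested neuronal genes 9 rose and 0 fell (median 0.85), and 5 rose without 3 month replicate 1 or without 3 month replicate 3. Snap25, a synaptic vesicle fusion gene, was at 11.3, 11.5, 16.3 and 20.6 CPM at 3 months and 24.7, 46.9, 34.6 and 53.7 CPM at 6 months, and its highest libraries, 6 month replicates 2 and 4, were also those highest for Mbp. Nefl (0.92 ± 0.16), a neurofilament gene, and Stmn2 (1.64 ± 0.28), a microtubule gene of axons, rose, and Tubb3, a tubulin gene, was at 114, 102, 113 and 96.1 CPM at 3 months and 171, 61.6, 55.2 and 48.2 CPM at 6 months and did not pass. Without 6 month replicate 1 Tubb3 fell (-0.95, adjusted p = 1.8e-05), the 1 neuronal gene lower there, with 10 higher. The part of neuronal RNA in the rise of Mbp, Kif5a and the genes like them was not tested. Astrocyte genes had 0 of 20 higher and 1 lower, F3 (-1.37 ± 0.26), a tissue factor gene, and the summed level was 534 to 861 CPM at 3 months and 622 to 849 CPM at 6 months. Gfap, the astrocyte filament gene, was at 62.3, 68.4, 80.5 and 112 CPM at 3 months and 74.1, 260, 116 and 196 CPM at 6 months and did not pass, and nor did Clu (1.06 ± 0.38), Aqp4 (0.13 ± 0.55) or Slc1a2 (-0.30 ± 0.38). Without 6 month replicate 1, 2 astrocyte genes rose, Gfap (1.24) among them, and Clu rose without 3 month replicate 2 (1.43).

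Of 18 tested microglial genes 2 fell and 0 rose, against 9.46% and 14.9% of all genes tested. The 2 were P2ry12 (-1.25 ± 0.22), a purine receptor gene, and Sall1 (-0.71 ± 0.08), a factor gene that held most of the list's counts (166 to 202 CPM at 3 months and 107 to 119 CPM at 6 months). Cx3cr1 (-0.14 ± 0.35) and C1qa (-0.06 ± 0.27) did not pass. Perivascular macrophage, blood cell and Schwann cell genes had 0 calls among 4, 7 and 2 tested, though 3 of 4 perivascular macrophage genes fell without 6 month replicate 1. Of 8 tested ependymal and choroid plexus genes 1 rose and 0 fell (median 2.43), and with DESeq2 6 rose. Ttr, the choroid plexus transthyretin gene, was at 705, 863, 123 and 33.6 CPM at 3 months and 1660, 3630, 3634 and 274 CPM at 6 months, which varied widely within each age (log2 2.41 ± 1.15), and the cilium gene Foxj1 (-0.10 ± 0.19) did not pass.

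Genes that respond within minutes to stimulation, tissue dissociation included, were mostly higher at 6 months, with 12 of 16 tested called higher and 0 lower (median 1.14). Fos was at 386, 438, 452 and 425 CPM at 3 months and 689, 703, 966 and 769 CPM at 6 months and Egr1 at 187, 288, 243 and 247 CPM at 3 months and 416, 429, 571 and 488 CPM at 6 months. No 6 month library overlapped the 3 month libraries in either gene, and the log2 fold changes were 0.88 ± 0.12 and 0.98 ± 0.14. Klf2 (2.60 ± 0.27) and Klf4 (2.12 ± 0.24), factor genes with high levels in endothelium, had the largest folds of these, followed among the named genes by Nr4a1 (1.43 ± 0.16), Fosb (1.30 ± 0.21) and Junb (0.96 ± 0.11), and Jun (-0.03 ± 0.14) did not pass. The part of vascular cells in these values was not tested. Of 16 tested clock genes 4 rose and 0 fell (median 0.26), against 14.9% and 9.46% of all genes tested. Without 6 month replicate 1, 6 rose and 1 fell. Npas2 (2.12 ± 0.39) and Bhlhe40 (0.50 ± 0.09), which encode clock factors, rose, whereas Dbp (-0.47 ± 0.18) and Ciart (0.004 ± 0.20) did not pass, although Dbp did without 6 month replicate 2 (-0.65). The hour of collection was not stated in the labels.

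Whether these age effects differed from those in astrocyte sorts was tested in 1 fit of 17 libraries, as the effect in O4 sorts minus the effect in ACSA2 sorts. Over 16363 genes 1631 differences were positive (9.97%) and 1053 negative (6.44%), and 682 were negative without astrocyte 6 month replicate 3. Of the 20 cholesterol synthesis genes 17 had a negative difference and 0 a positive one. Sqle differed by -1.51 ± 0.18 (adjusted p = 2.89e-05), with an astrocyte effect of 0.21 ± 0.12. Srebf2 differed by -0.56 ± 0.12 and Hmgcs1 by -0.91 ± 0.25 (adjusted p = 0.019). The Hmgcs1 call was lost without astrocyte 6 month replicate 1 (-0.81).

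The genes that rose with Mbp also differed between the cell types. The difference was 1.91 ± 0.32 for Mbp (adjusted p = 0.000438), 1.77 ± 0.29 for Mobp, 2.14 ± 0.34 for Bcas1 and 2.50 ± 0.30 for Kif5a. The astrocyte effects of these 4 genes were -0.42 ± 0.22, -0.56 ± 0.20, -0.58 ± 0.23 and -0.76 ± 0.21, of which that of Kif5a passed (adjusted p = 0.0287). Of the 31 myelin genes 7 had a positive difference and 1 a negative one. Mog differed by -0.22 ± 0.20 (adjusted p = 0.503). Ugt8a, Gal3st1 and Fa2h differed by 0.28 ± 0.24, -0.03 ± 0.16 and 0.11 ± 0.18, and their astrocyte effects were -1.07 ± 0.16, -0.70 ± 0.11 and -0.76 ± 0.12. Astrocyte sorts held these transcripts too, and 14 of the 31 myelin genes fell in them, against 6.53% of all tested genes, with 0 higher, against 4.33%. A difference that misses the threshold does not show that the 2 effects are alike.

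Precursor and vascular genes differed as well. Of 22 precursor genes 8 had a negative difference and 0 a positive one, among them Cspg5 (-1.96 ± 0.32), whereas Pdgfra (-1.47 ± 0.50, adjusted p = 0.0582) and the newly formed cell gene Enpp6 (0.27 ± 0.24) did not pass. Klk6 (-0.73 ± 0.38, adjusted p = 0.209) did not pass, and Gsn (-0.69 ± 0.19, adjusted p = 0.0175) lost its call without astrocyte 3 month replicate 1 (-0.61) or 6 month replicate 3 (-0.61). All 27 endothelial genes had a positive difference, and so did 15 of 18 pericyte and smooth muscle genes and 9 of 19 neuronal genes. Pecam1 differed by 3.34 ± 0.37, with an astrocyte effect of -0.67 ± 0.25. Pdgfrb differed by 1.82 ± 0.24 and Snap25 by 2.20 ± 0.40.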

How the data were processed

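RNA of O4 and ACSA2 sorts was sequenced with a poly(A) kit that adds unique molecular identifiers, per the labels' protocols. The submitters' processing notes list DESeq2, the counter featureCounts 2.0.1, fastp, UMI-tools 1.0.1 and the aligner STAR 2.7.7a. They name GRCm38.p6, GRCm39 and mm10 with no role for any, so the GENCODE vM21 coordinates printed belong to that annotation. The authors deposited whole-number counts per gene symbol and a separate TPM table. Counts were fitted in R 4.3.3 with edgeR 4.0.16 (TMM scaling, filterByExpr with a minimum count of 10, robust quasi-likelihood test, Benjamini-Hochberg adjustment). CPM are counts scaled to library size by edgeR's cpm with TMM factors, and ± is the SE unless SD is named. In the astrocyte comparison, 17 libraries entered 1 fit with an interaction term. Deposited TPM, as the authors scaled them, served only for levels between genes and list sums. The alternatives were DESeq2 1.42.0, limma-voom (limma 3.58.1), other scalings and filters, a replicate block and leaving out each library. Leaving out genes over 0.5% of a library was added after seeing the data.

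The libraries, lists and members were chosen with earlier results of these data known. Text genes came from a rule: per list the 6 members of lowest p and the 3 of highest TPM, the 12 largest changes each way of at least 5 CPM and 4-fold oligodendrocyte-enriched genes, plus 34 set genes. The other named genes, 38 in number, were chosen after their values were seen. Steps were tested on simulated data. No 2 libraries agreed within sampling noise. Some genes are not reported here.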

Additional observations from a re-analysis of the deposited data

Results flagged for a closer look

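Samples far from the others of their age were looked for in 430 groups of 4 libraries, and 41 groups held one. About 1 in 20 groups is marked by chance where groups are not chosen by their values. Some of the genes behind these groups were chosen after their values were seen, so that share is no test of the 41. Most of the 41 were replicate 1 of 6 months.

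Among the 6 month libraries it was high for the myelin factor Myrf (2390 CPM), the heme transporter Slc48a1 (685 CPM), Ptgds (8044 CPM), Apod (6567 CPM), Acaca (391 CPM), Scap (119 CPM), Erbb3 (423 CPM), Kcnj10 (1481 CPM) and Tubb3 (171 CPM). It was high for Plin4 (785 CPM), Sgk1 (1602 CPM), Fkbp5 (105 CPM), Sult1a1 (51.3 CPM) and Zbtb16 (122 CPM), and for the vessel genes Mfsd2a (59.2 CPM) and Ackr1 (9.79 CPM). It was low for Tardbp (79.9 CPM), Prom1 (24.6 CPM), Opalin (187 CPM), Il33 (569 CPM), Acly (148 CPM), Hmgcs1 (151 CPM) and the microglial gene P2ry12 (2.51 CPM). Among the 6 month libraries the summed levels of 5 lists were highest there: sterol sensing, uptake and export (7936 CPM), ion channels and transmitter receptors (3356 CPM), cell division (206 CPM), glucocorticoid response (4415 CPM) and perivascular macrophages (28.6 CPM). That of blood cells was the lowest of 6 months there (23.0 CPM), above the 7.81 CPM of 3 month replicate 4.

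Among 3 month libraries, replicate 4 was high for Mobp (10784 CPM), Kif5c (201 CPM) and Col1a1 (5.72 CPM) and low for Tnfrsf1a (3.25 CPM) and for the share of Lars2 (0.0989%). Replicate 2 was low for Elovl7 (281 CPM) and high for Acacb (2.46 CPM) and Npas2 (1.33 CPM). Replicate 3 was low for Il33 (589 CPM) and replicate 1 for Junb (50.4 CPM). At 6 months, replicate 3 was high for Sptlc2 (64.9 CPM) and replicate 2 for Anxa2 (24.9 CPM).

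The age effect in O4 sorts differed from that in astrocyte sorts, by the interaction term, for 12 of the 19 named genes in which it is reported. On the log2 scale the O4 effect was the higher by 1.91 for Mbp, 1.77 for Mobp, 2.14 for Bcas1, 2.50 for Kif5a, 3.34 for Pecam1, 1.82 for Pdgfrb and 2.20 for Snap25. The difference was -1.51 for Sqle, -0.91 for Hmgcs1, -0.56 for Srebf2, -1.96 for Cspg5 and -0.69 for Gsn.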

How the results depend on the processing

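Without 1 library at a time, genes called ranged from 2214 (without 3 month replicate 1) to 4925 (without 6 month replicate 1), with 1357 to 2709 higher and 793 to 2216 lower. The negative differences from astrocytes ranged from 682 to 1522. Ranges were 3 to 10 for cell division genes lower, 3 to 7 for committed and newly formed genes higher, 5 to 12 for mature genes lower, 5 to 12 for fatty acid genes lower and 5 to 10 for neuronal genes higher. The Acaca change was -0.44 (without 6 month replicate 1) to 0.19, and that of Col1a1 -0.44 to 1.53 (without 3 month replicate 4). With no filter 11 cell division, 11 mature and 13 sphingolipid genes were lower. The replicate numbers did not pair the libraries (correlations of same-numbered deviations from -0.12 to 0.18), and a fit with the replicate block called 2943 genes, 1908 higher and 1035 lower, and 2108 differences from astrocytes. With the block the calls of Top2a (-2.21), Ptprz1 (-1.17), Scd2 (-0.37), Unc5b (-0.31) and Tardbp (0.25) were lost, Clu (1.15), Ttr (2.75) and Ackr1 (2.07) passed, and 6 of 8 ependymal and choroid plexus genes and 2 of 20 astrocyte genes rose. With DESeq2 6 of those 8, 4 fatty acid genes and 1 astrocyte gene rose, and 5 sterol sensing genes fell. Of the named genes that did not pass, 25 did under some setting, 16 of them without 6 month replicate 1 and 13 with no filter. Under all settings 115 of 127 named calls of age and 10 of 12 named differences passed.

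Summed levels in deposited TPM differed from those in CPM, and the cause was not tested. The log2 of 6 over 3 months is given in TPM, with the CPM value in brackets. It was -0.55 (-0.253) for precursor, 0.0452 (0.519) for myelin sheath, 0.0364 (0.257) for mature and -0.34 (-0.0697) for transcription factor genes. For sphingolipid, fatty acid and growth factor receptor genes it was -0.52 (-0.345), -0.47 (-0.26) and -0.35 (-0.156). Ion channel, cell division and disease-associated genes had -0.44 (-0.2), -0.47 (-0.301) and -0.13 (0.293). Clock, immediate early and brain endothelial transporter genes had 0.0367 (0.198), 0.64 (0.86) and 0.0402 (0.258). Fibroblast and neuron genes had 1.28 (0.68) and 0.13 (0.518). Depth limits genes of a few CPM most, as in cell division and fibroblast lists.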
